A study of Caenorhabditis elegans with 6 samples.

Results

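The dod genes, named for lying downstream of daf-16, were identified by how their transcripts respond when that gene is active. Of them, dod-3, dod-6, dod-17, dod-18, dod-19, dod-20 and dod-23 lie outside the C32H11 and F55G11 gene clusters, and these 7 genes are described here. They were found by matching the sequence name of every spot to its gene symbol, and each of the 7 has 1 probe, among 18889 genes and 22490 gene probes on the array. C. elegans of the N2 strain were raised from eggs on agar dishes with a low dose mixture (LDM) of chlorpyrifos (CPF) and diazinon (DZN), dissolved in acetone, or with acetone alone as control, for 72 h at 16 °C to the L3/L4 stage, with E. coli OP50 as food. The LDM held 0.5 mg/l CPF and 1 mg/l DZN by the methods, while the labels of the samples have 0.5 mg/ml and 1 mg/ml. Whole worms of several dishes were pooled for each sample. RNA of LDM worms and of control worms was hybridized together on 6 arrays, which the methods call independent biological replicates, with the LDM in Cy5 on 3 arrays and in Cy3 on 3 arrays.

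DAF-16 is the FOXO transcription factor at the end of the insulin-like pathway. When the insulin receptor DAF-2 is active, kinases of the AKT family keep DAF-16 out of the nucleus, and when the receptor is less active DAF-16 enters the nucleus and changes stress resistance, fat storage and life span. Its downstream genes fall into those raised by DAF-16 activity, to which dod-3 and dod-6 belong, and those lowered by it, to which dod-17, dod-18, dod-19, dod-20 and dod-23 belong; the zinc-finger factor PQM-1 is associated with promoters of the lowered group. In whole-worm RNA, fewer cells of a type and less RNA per cell cannot be told apart.

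Each result is a log2 ratio of LDM over control, so that 1 is a doubling with the LDM and 0 is no difference. Spots that the image software marked, mostly dim ones, were left out of the test, and a gene was tested where each dye orientation had 2 or more unmarked arrays. On this rule 5 of the 7 dod genes were tested among 7989 genes, of which 30 passed in either direction, and dod-20 and dod-23 were not. Unmarked spots made up 37.6 to 41.9% of gene spots with LDM in Cy5 and 56.5 to 61.4% with LDM in Cy3. Across unmarked probes, which are not independent replicates, r between arrays lay between -0.353 and 0.425. The lowest r was that of LDM in Cy5 replicates 2 and 3, and the labelled dyes gave each array its direction. LDM in Cy3 replicate 1 had its image analysed on another date and with fixed rather than adaptive circles. Its control extract carries the same label in the scanner's header as that of LDM in Cy5 replicate 3. Whether this is 1 extract is not stated. Of the lists of tissue markers, 14 of 15 intestinal, 12 of 15 body wall muscle, 12 of 16 neuronal, 15 of 15 hypodermal and moulting, and 13 of 15 germline genes could be tested. Of these genes 0 passed limma. At a limma unadjusted p under 0.05, 5 hypodermal and moulting genes were lower and 1 neuronal gene was higher, against 4.92% and 4.39% of all tested genes. In the hypodermal and moulting list 14 of 15 ratios were below 0, with a median of -0.24. In the body wall muscle list 11 of 12 were below 0, with a median of -0.09. The 8 tested sperm genes, of 17, were all below 0, with a median of -0.32 that ran from -1.29 to 0.81 on single arrays. Over all tested genes, 44.8% of ratios were above 0. The part of these tissues in the ratios of the dod genes was not tested.

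None of the 5 tested dod genes was past the threshold in either direction. The count was 0 higher, where 0.313% of all tested genes were higher, and 0 lower, where 0.0626% were lower (Benjamini-Hochberg adjusted p under 0.05 in limma). By rank product, the test named in the methods, 0 were higher and 0 lower at a percentage of false positives under 0.05, against 1.39% and 0.476% of all tested genes. At an unadjusted p under 0.05, 1 gene was higher, dod-19, and 0 were lower, against 4.39% and 4.92% of all tested genes. The median log2 ratio of the 5 tested dod genes was 0.15, against -0.03 over all tested genes, and 3 of the 5 were positive, against 44.8% of all tested genes. Leaving out LDM in Cy5 replicate 2 or 3 gave a median of 0.06 or 0.27, and leaving out LDM in Cy3 replicate 1 or 2 gave 0.24 or 0.10. It was 0.31 with median centring and 0.05 with ratios scaled to an equal spread.

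In order of their ratios, the tested dod genes ran from dod-19 (0.66) through dod-17 (0.43), dod-6 (0.15) and dod-3 (-0.22) to dod-18 (-0.34). The 95% intervals of each neighbouring pair in this order overlapped. The SD of the log2 ratio between arrays was 0.31 for dod-19, 0.37 for dod-6, 0.64 for dod-17 (5 arrays), 0.96 for dod-18 and 1.18 for dod-3. Over the 6486 genes unmarked on all 6 arrays, to which dod-17 does not belong, the median SD was 0.41.

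**Figure D1:**
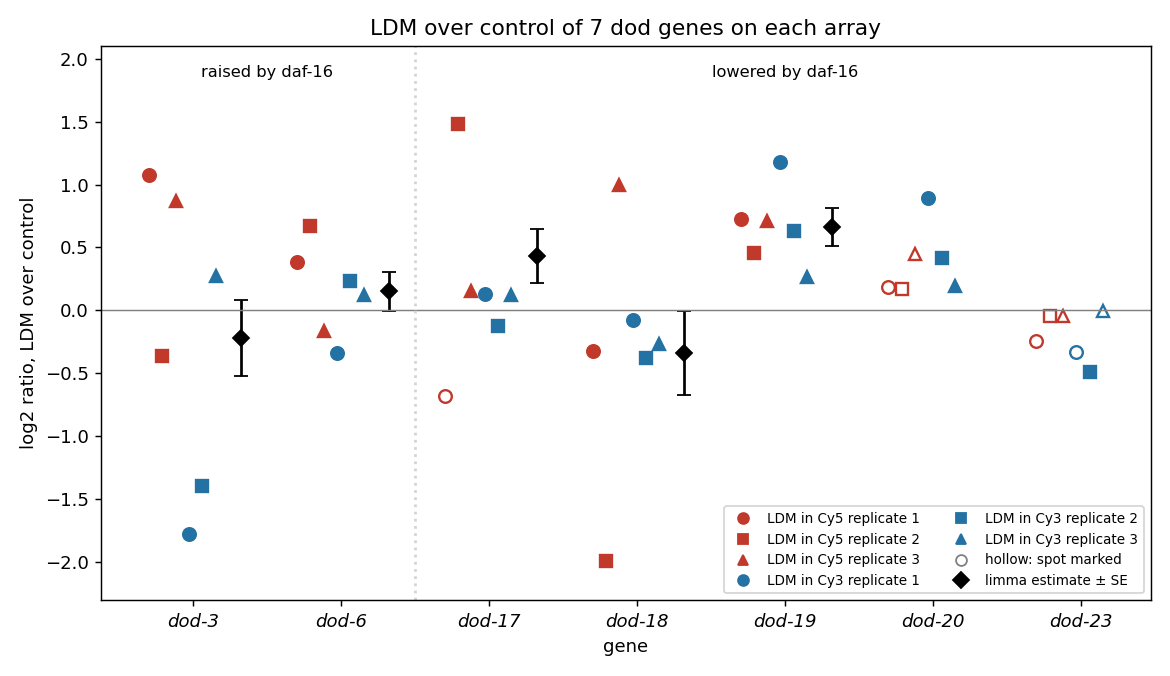
Log2 ratio of LDM over control (y axis) of the 7 dod genes (x axis), 1 point per array, coloured by the dye of the LDM sample and shaped by replicate number. Hollow points are marked spots, and black diamonds are limma estimates with standard errors. All 6 points of dod-19 and of dod-20 lie above 0, those of dod-23 lie below 0, and those of dod-3 and dod-18 span from -1.77 to 1.07 and from -1.99 to 1.00.

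Of the genes lowered by DAF-16, dod-19 (ZK6.10, chromosome V) had the highest ratio of the 5 tested dod genes and the smallest spread among them. It was 0.73, 0.46 and 0.71 with LDM in Cy5 (replicates 1 to 3) and 1.18, 0.63 and 0.27 with LDM in Cy3 (replicates 1 to 3). All 6 arrays lay above 0, as did 2.42% of 6486 genes unmarked throughout, and the mean was 0.63 with LDM in Cy5 and 0.69 with LDM in Cy3. The normalized intensity was 12130 to 22520 in the LDM channel (median 15195) and 5752 to 14400 in the control channel (median 10347), so that the channels overlapped between arrays but not within any array. The estimate was a 1.58-fold higher level with the LDM, with a log2 ratio of 0.66 (standard error 0.15, 95% interval 0.32 to 1.01, n = 6 arrays). It did not pass limma (unadjusted p = 0.00234, adjusted p = 0.208) or the rank product (percentage of false positives 0.0640). By unadjusted p it ranked 90 of the 7989 genes, and by ratio 139.

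With each array left out in turn, the ratio of dod-19 stayed between 0.54 (LDM in Cy3 replicate 1 left out) and 0.77 (LDM in Cy3 replicate 3 left out). Its limma adjusted p lay between 0.113 and 0.794 and its percentage of false positives between 0.0615 and 0.411 in these fits. Under array weights, which gave LDM in Cy5 replicate 1 a weight of 3.86 and LDM in Cy5 replicates 2 and 3 weights of 0.263 and 0.198, dod-19 passed with a log2 ratio of 0.72 (limma adjusted p = 0.00342). That fit also called 629 genes higher and 921 lower, against 25 and 5 in the fit with equal weights.

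The gene dod-20 (B0554.6) lies on the same chromosome as dod-19, with 2 genes between them in the RefSeq annotation of WBcel235. Its spot was marked on 3 of 3 arrays with LDM in Cy5, and on 0 of 3 with LDM in Cy3. The log2 ratio was 0.89, 0.42 and 0.19 with LDM in Cy3 (replicates 1 to 3). The marked spots of the 3 arrays with LDM in Cy5 gave 0.19, 0.17 and 0.45. All 6 arrays thus lay above 0, as did 2.42% of the genes unmarked throughout, to which dod-20 does not belong. The mean was 0.39 ± 0.28 (SD, n = 6 arrays). The scanner intensity in the LDM channel was 217 to 409 with LDM in Cy5 and 1177 to 1302 with LDM in Cy3. The local background there was 157 to 181. The signal was more than 2 background SD above the local background on 3 of 6 arrays in the LDM channel and on 1 of 6 in the control channel. The background around this spot was uneven, with an SD of up to 804 in the LDM channel and up to 1619 in the control channel, against at most 77.3 in the LDM channel and 47.0 in the control channel around the spots of the other 6 dod genes. With marked spots kept in the fit, dod-20 did not pass (limma unadjusted p = 0.0121, adjusted p = 0.327). In that fit 844 of 18889 genes were higher at a limma unadjusted p under 0.05.

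Of the pair of genes between dod-19 and dod-20, irg-8 (ZK6.11), named for its response to infection, had a log2 ratio of 0.19 (standard error 0.21, limma adjusted p = 0.834). It was above 0 on 4 of 6 arrays. Too many spots of Y39D8A.1 were marked for it to be tested.

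For dod-17 (K10D11.1, chromosome IV), which encodes a protein with a CUB-like domain, 1 array lay apart from the rest. The values were 1.48 on LDM in Cy5 replicate 2, 0.16 on LDM in Cy5 replicate 3 and 0.13, -0.12 and 0.12 on the 3 arrays with LDM in Cy3 (replicates 1 to 3). The spot on LDM in Cy5 replicate 1 was marked and gave -0.68. Normalized intensities ran from 481 to 5633 in the LDM channel and from 769 to 3573 in the control channel. The estimate over the 5 unmarked arrays was 0.43 (standard error 0.21, 95% interval -0.08 to 0.94, limma adjusted p = 0.602). It was 0.10 when LDM in Cy5 replicate 2 was left out and 0.76 when LDM in Cy5 replicate 3 was left out (limma adjusted p = 0.757 and 0.109). Each of these fits held 1 array with LDM in Cy5, whose spread is assumed to be that of the others. With the marked spot kept the estimate was 0.17 (limma adjusted p = 0.871).

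Next to the F55G11 cluster lies dod-17, with F55G11.2 and mbug-1 (F55G11.4) between it and dod-22 in the RefSeq annotation. These genes were looked up for their place and their values are given as a description. The log2 ratio was 1.64 for F55G11.2 (limma adjusted p = 0.0801) and 1.39 for mbug-1 (limma adjusted p = 0.0180), each above 0 on 6 of 6 arrays. The rank product called both higher, at percentages of false positives of 0 for F55G11.2 and 0.000588 for mbug-1. These calls held without each array in turn, with percentages of at most 0.00182 for F55G11.2 and 0.0019 for mbug-1. The limma call of mbug-1 was lost without LDM in Cy5 replicate 1, LDM in Cy3 replicate 1 or LDM in Cy3 replicate 2 (adjusted p = 0.145, 0.110 and 0.145), where its log2 ratio was 1.43, 1.33 and 1.32. F55G11.2 passed limma without LDM in Cy5 replicate 2 or LDM in Cy5 replicate 3 (adjusted p = 0.0177 and 0.0345). Whether dod-17 differs from either neighbour was not tested.

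The transcript of dod-18 (C54G4.6, chromosome I) was below control on 5 of 6 arrays, but with ratios in opposite directions on arrays of the same orientation. It was -0.32, -1.99 and 1.00 with LDM in Cy5 (replicates 1 to 3) and -0.07, -0.38 and -0.27 with LDM in Cy3 (replicates 1 to 3). Normalized intensities were 704 to 4460 in the LDM channel and 2164 to 5567 in the control channel, and these ranges overlapped. The estimate was -0.34 (standard error 0.33, 95% interval -1.11 to 0.43, limma adjusted p = 0.814). Leaving out LDM in Cy5 replicate 2 gave 0.050, and leaving out LDM in Cy5 replicate 3 gave -0.70 (limma adjusted p = 0.904 and 0.209). The same arrays differed in oocyte and germline markers, in the other direction. The median log2 ratio of 6 tested oocyte genes was 0.80 on LDM in Cy5 replicate 2 and -1.07 on LDM in Cy5 replicate 3, and that of 13 tested germline genes was 0.64 and -0.81. On the other 4 arrays the oocyte median lay between -0.03 and 0.26 and the germline median between -0.03 and 0.11. The sperm median did not follow these lists. It was -0.53, -0.08 and -1.29 with LDM in Cy5 (replicates 1 to 3) and -1.04, -0.01 and 0.81 with LDM in Cy3 (replicates 1 to 3). The difference between LDM in Cy5 replicates 2 and 3 was not confined to these lists, as their r over unmarked probes was -0.353. The body wall muscle median was 0.19 and -0.43 on these arrays, and that of the 2 tested clustered dod genes was -0.53 and 1.82. The intestinal median was -0.07 and -0.12. The part of any tissue in the values of dod-18 was not tested.

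The probe of dod-23 (F49E12.2, chromosome II) was near background. It was unmarked on LDM in Cy3 replicate 2 alone, where the log2 ratio was -0.49, and over all its spots the other 5 arrays gave between -0.33 and -0.004. The mean was -0.19 ± 0.19 (SD, n = 6 arrays), with 6 of 6 below 0, as were 3.25% of the genes unmarked throughout, to which dod-23 does not belong. In each channel the signal was above background by more than 2 background SD on 3 of 6 arrays, with normalized intensities of 91.5 to 372 in the LDM channel and 95.4 to 384 in the control channel. In the authors' own ratios 5 of 6 arrays were below 0, with a mean of -0.13. With marked spots kept in the fit, dod-23 did not pass (limma unadjusted p = 0.083, adjusted p = 0.551).

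**Figure D2:**
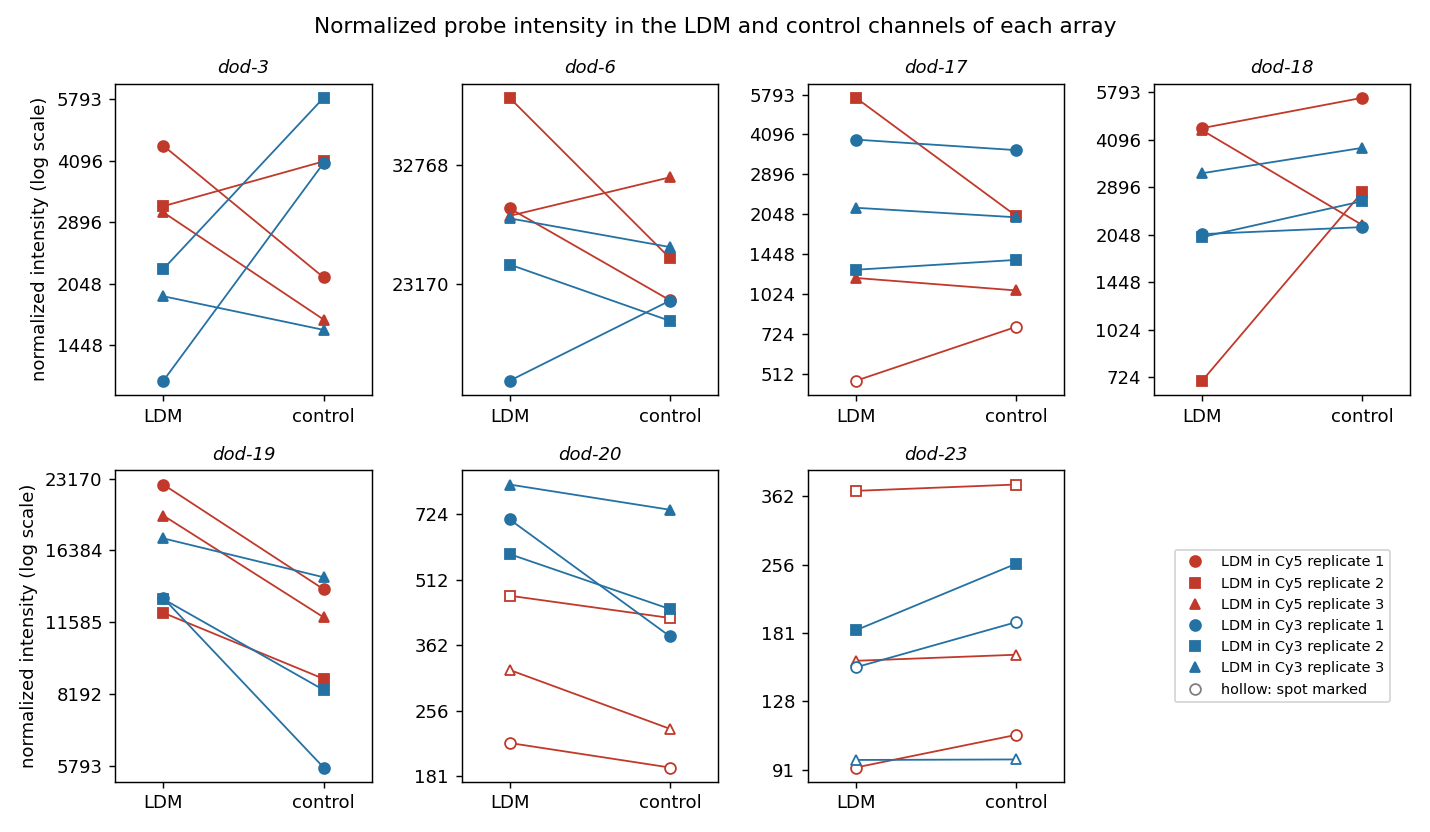
Normalized intensity (y axis, log scale) of each dod gene's probe in the LDM channel (left) and the control channel (right), 1 line per array, coloured by the dye of the LDM sample. Hollow points are marked spots. The 6 lines of dod-19 all run down to the control, from 12130 to 22520 with the LDM and from 5752 to 14400 in control, and the lines of dod-3 and dod-6 cross. Scales differ between panels, and probes are not compared with each other.

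Of the genes raised by DAF-16, dod-3 (C24B9.9, chromosome V) had the largest SD between arrays of the 5 tested dod genes. Its log2 ratio was 1.07, -0.36 and 0.87 with LDM in Cy5 (replicates 1 to 3) and -1.77, -1.39 and 0.27 with LDM in Cy3 (replicates 1 to 3). The orientations averaged 0.53 with LDM in Cy5 and -0.96 with LDM in Cy3. The dye effect in the fit was 0.74 on the log2 scale (limma unadjusted p = 0.0389, adjusted p = 0.778). Normalized intensities were 1186 to 4464 with the LDM and 1580 to 5848 in control, with 3 arrays higher and 3 lower. The estimate was -0.22 (standard error 0.30, 95% interval -0.91 to 0.48, limma adjusted p = 0.874). Leaving out LDM in Cy5 replicate 2 gave 0.0044, and leaving out LDM in Cy3 replicate 3 gave -0.53 (limma adjusted p = 0.995 and 0.934). With the ratios scaled to an equal spread on every array it was -0.98 (limma adjusted p = 0.601).

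The other gene of this group, dod-6 (T20G5.7, chromosome III), had a bright probe, with normalized intensities of 17460 to 39830 in the LDM channel and 20790 to 31590 in the control channel. Its log2 ratio was 0.39, 0.67 and -0.16 with LDM in Cy5 (replicates 1 to 3) and -0.34, 0.24 and 0.12 with LDM in Cy3 (replicates 1 to 3). It was above 0 on 4 of 6 arrays. The lowest value, on LDM in Cy3 replicate 1, came from a spot with 32% of its pixels at the scanner's ceiling in the control channel and 0% in the LDM channel. A ceiling in control understates that channel, which would raise the ratio before normalization rather than lower it. The estimate was 0.15 (standard error 0.15, 95% interval -0.21 to 0.51, limma adjusted p = 0.817). Single arrays moved it between 0.06, when LDM in Cy5 replicate 2 was left out, and 0.27, when LDM in Cy5 replicate 3 was left out (limma adjusted p = 0.846 and 0.337).

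Across the 6 arrays the profiles of the 4 dod genes measured on every array correlated weakly or ran against each other. The highest Pearson r between them was 0.347, for dod-18 and dod-19, and the lowest was -0.803, for dod-6 and dod-18. These are descriptions over 6 arrays, on which the genes share the RNA and the dye orientation. Among 6482 other genes measured on all 6 arrays, those most like dod-19 in profile were nit-1 (r = 0.985) and Y38E10A.14 (r = 0.973). The profile of nit-1 ran parallel to that of dod-19 but below 0, with a log2 ratio of -1.29 and 0 of 6 arrays above 0. For dod-18 the closest were nabp-1 (r = 0.999) and F58G6.7 (r = 0.998), which shared its low value on LDM in Cy5 replicate 2 (-1.87 and -1.69) and its high value on LDM in Cy5 replicate 3 (1.12 and 1.77). For dod-6 they were gsto-3 (r = 0.987) and M01B12.4 (r = 0.986). For dod-3 they were Y56A3A.30 (r = 0.981) and cpt-1 (r = 0.979). Pearson r does not compare levels. The log2 ratios of Y56A3A.30 and cpt-1 were 0.37 and 0.03, against -0.22 for dod-3. Those of nabp-1 and F58G6.7 were -0.22 and 0.17, against -0.34 for dod-18. Those of gsto-3 and M01B12.4 were 0.22 and 0.27, against 0.15 for dod-6. That of Y38E10A.14 was -0.23, against 0.66 for dod-19. Each pair is the top 2 of 6482 correlations over 6 arrays, so a high r follows in part from the selection and was not tested.

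The remaining genes of the pathway gave no call in limma. Of 20 insulin signalling genes 14 were tested, and 0 were higher and 0 lower, with a median log2 ratio of 0.02 and a range from -0.22 to 0.81. The probe representing daf-16 itself had a log2 ratio of 0.25 (standard error 0.16, limma adjusted p = 0.698) and was above 0 on 4 of 6 arrays. The 4 tested probes of daf-16 averaged between 0.15 and 0.41, and the highest of these was above 0 on 6 of 6 arrays. Probes of daf-16 marked too often to be tested averaged 0.59 and 0.48, each over 3 unmarked arrays. The log2 ratio of pqm-1 was 0.11 (standard error 0.15, limma adjusted p = 0.862). The insulin receptor gene daf-2 was marked too often to be tested, and its spots averaged -0.03. The highest ratio was that of ins-18, an insulin-like peptide, which is the 1 gene of the list at an unadjusted p under 0.05 and was singled out after its value was seen. It had 0.81 (standard error 0.18, limma adjusted p = 0.212) and lay above 0 on 6 of 6 arrays. Its values were 1.89, 0.67 and 1.86 where the LDM was in Cy5 and 0.06, 0.26 and 0.12 where it was in Cy3.

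Other genes that DAF-16 raises had ratios of both signs, as did dod-3 and dod-6. Of 22 such genes 15 were tested, with 10 positive and 5 negative log2 ratios, a median of 0.15 and 0 past limma in either direction. With 1 array left out that median lay between 0.04 (LDM in Cy3 replicate 3) and 0.30 (LDM in Cy3 replicate 1), and with scaled ratios it was -0.0031. The metallothionein gene mtl-1 had 0.31 (standard error 0.22, limma adjusted p = 0.737), and the lysozyme gene lys-7 had 0.31 (standard error 0.17, limma adjusted p = 0.644). The superoxide dismutase gene sod-3 was not tested and averaged -0.41 with marked spots included. By rank product hsp-16.41, a small heat shock protein gene, was higher, with a log2 ratio of 0.56 and a percentage of false positives of 0.0287, and ftn-1, a ferritin gene, was lower, with -0.90 and 0.0239. The call of hsp-16.41 was lost without 4 of the arrays in turn, with percentages of false positives of 0.0772 (LDM in Cy5 replicate 1), 0.169 (LDM in Cy5 replicate 3), 0.225 (LDM in Cy3 replicate 1) and 0.127 (LDM in Cy3 replicate 2). That of ftn-1 was also lost without 4 arrays in turn, LDM in Cy5 replicate 1 (0.207) and each of the LDM in Cy3 arrays (0.0609, 0.0817 and 0.0809). At an unadjusted p under 0.05, ftn-1, gst-10 and spp-1 were lower, each below 0 on 6 of 6 arrays. The glutathione S-transferase gene gst-10 had -0.80 and the saposin-like gene spp-1 had -0.49 (limma adjusted p = 0.146 and 0.471); both were named after their values were seen.

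**Figure D3:**
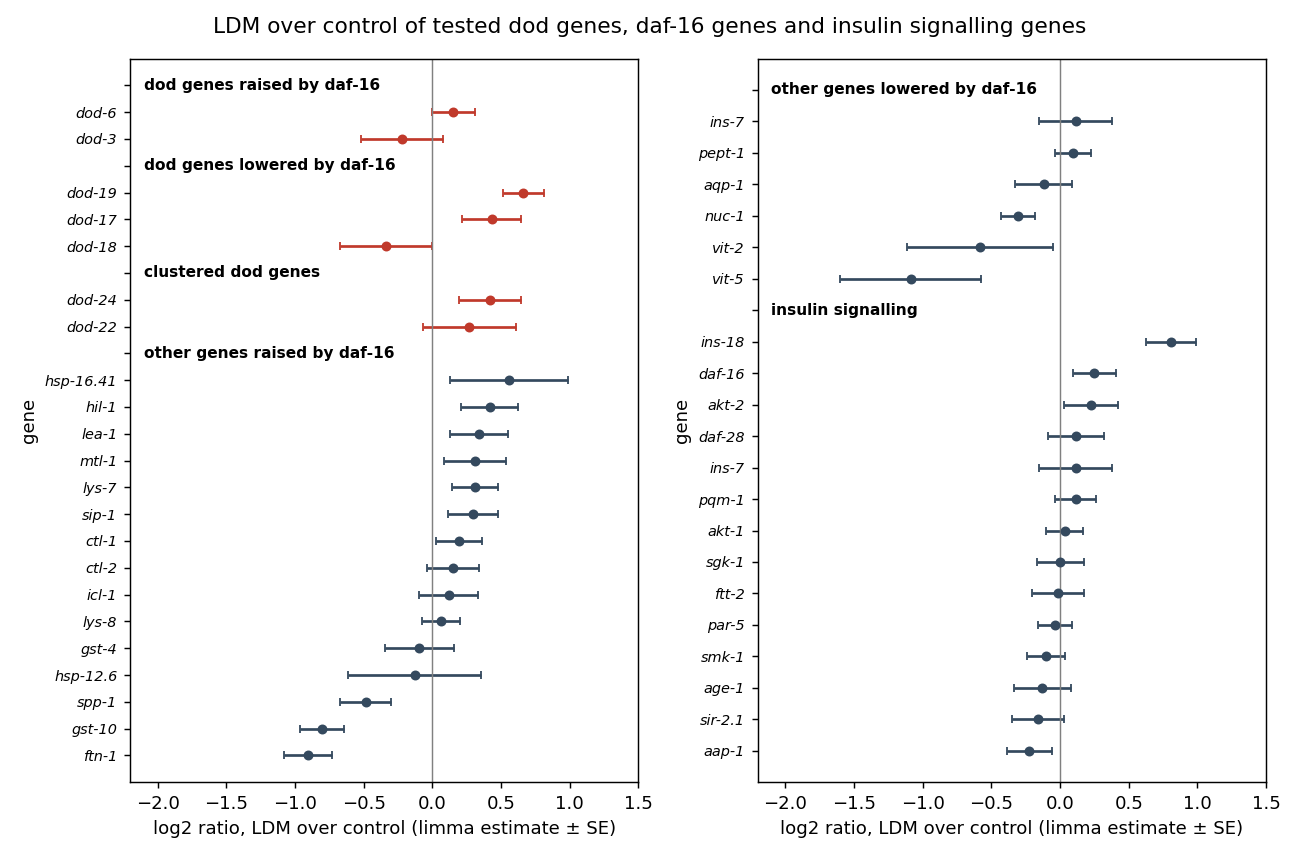
Log2 ratio of LDM over control (x axis, limma estimate with its standard error as bar) of every tested gene (y axis) in the daf-16 lists, with dod genes in red; ins-7 stands in 2 lists. The dod genes lie between -0.34 and 0.66, inside the range of the other genes raised by DAF-16, which runs from -0.90 to 0.56, except for dod-19.

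Of 9 other genes that DAF-16 lowers, 6 were tested, and 0 passed limma in either direction. The median of the 3 tested dod genes of that group was 0.43, which is the value of dod-17, against -0.21 for these 6 genes. Without LDM in Cy5 replicate 2 the medians were 0.10 and -0.24, without LDM in Cy5 replicate 3 they were 0.64 and -0.22, and leaving out LDM in Cy3 replicate 1 gave 0.41 and 0.05. Whether the groups differ was not tested. The yolk protein genes vit-2 and vit-5 had -0.58 (standard error 0.53, limma adjusted p = 0.796) and -1.09 (standard error 0.51, limma adjusted p = 0.574). Both were below 0 on 5 of 6 arrays and far above 0 on LDM in Cy3 replicate 3 (2.02 and 2.44). By rank product vit-5 was lower, also without each array in turn, with a percentage of false positives of at most 0.004. At an unadjusted p under 0.05 the nuclease gene nuc-1, named after its value was seen, was lower, with -0.31 (limma adjusted p = 0.512). In the clusters, dod-22 had 0.27 (standard error 0.34, limma adjusted p = 0.856) and dod-24 had 0.42 (standard error 0.23, limma adjusted p = 0.627), both with their highest value on LDM in Cy5 replicate 3 (2.03 and 1.61). No spot was matched to dod-21, which was not analysed here.

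**Figure D4:**
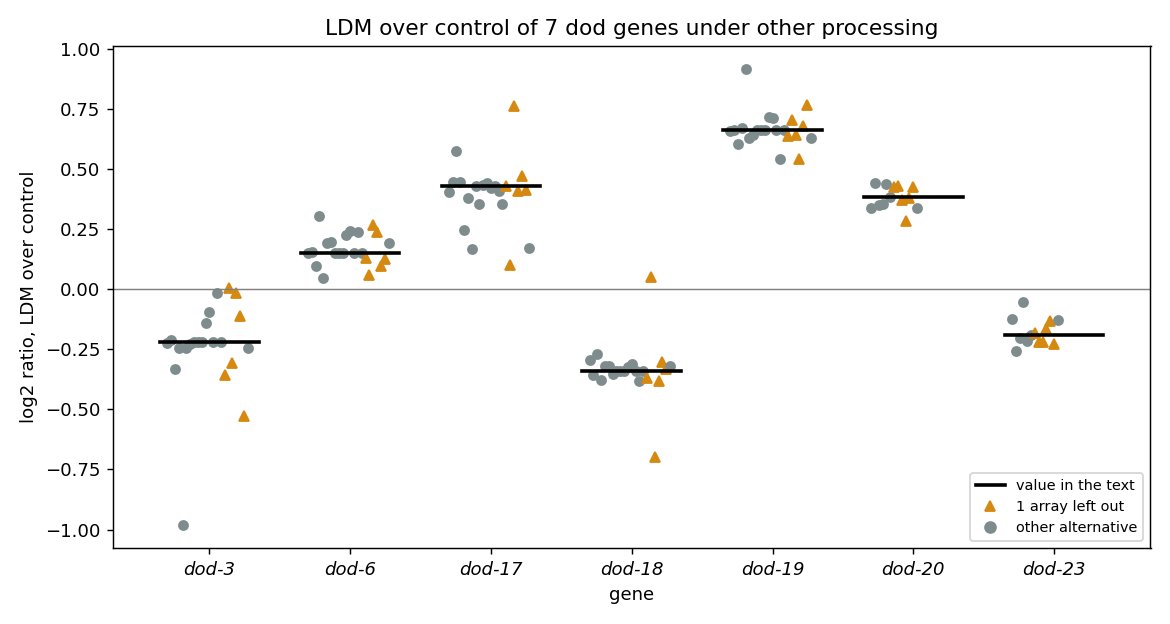
Log2 ratio of LDM over control (y axis) of each dod gene (x axis) under the alternatives to the processing, with fits that left out 1 array as triangles, other alternatives as circles and the value in the text as a line; for dod-20 and dod-23 these are means over all spots. The ratio of dod-19 stayed between 0.54 and 0.92, and those of dod-3 and dod-18 reached 0.0044 and 0.050 when LDM in Cy5 replicate 2 was left out.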

How the data were processed

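The scanner intensity of each spot in Cy3 and Cy5 and its local background were deposited without correction; the authors also deposited the percent of saturated pixels. Their series table holds, as deposited, log2 ratios of LDM over control after loess and Aquantile in limma, whose version is not given in the sources used here; its columns correlated with the recomputed ratios at r from 0.974 to 0.991.

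Ratios were recomputed in limma 3.58.1 (R 4.3.3): normexp correction (offset 50), global loess on the unmarked gene spots, and Aquantile between arrays. For marked spots, and for every spot of dod-20 and dod-23, loess ran over all gene spots. Of the gene probes, 95.1% matched a gene of the RefSeq table of WBcel235 by sequence name. Where several probes of a gene were tested, the brightest one on average stood for it. The linear model held an LDM effect and a dye effect, with Benjamini-Hochberg adjustment over all 7989 genes. The rank product was written anew, with 100 permutations, and took the best of a gene's tested spots. Scripts were tested on simulated data. The number of arrays limits the precision.

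Named were all 7 genes, 11 genes of the pathway lists chosen by name, every listed gene past either test, and the 2 genes with the most similar profile for each dod gene measured on every array. Genes and lists were chosen with earlier results of these data known. Alternatives were other background corrections, loess, centring or scaling, the authors' ratios, keeping marked spots, dropping dim probes or the dye term, a block of same-numbered arrays, array weights, all probes averaged, a term for the image analysis date, the rank product, and omission of each array in turn, with genes then tested on at least 1 array per orientation.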

Additional observations from a re-analysis of the deposited data

Results flagged for a closer look

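The log2 ratio of dod-17 on LDM in Cy5 replicate 2, 1.48, lay far from its other 4 values, of which the nearest was 0.16. The gap between them was 0.825 of the whole range, above Dixon's critical value of 0.71 for 5 values. Chance flags about 1 in 20 groups, and 5 genes were examined in this way. In the authors' ratios the same array gave 1.35.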

How the results depend on the processing

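Of 110 values of the 5 tested dod genes under the alternatives, 4 moved past the threshold and 2 changed direction. Not all of these are separate checks. Dropping dim probes or averaging probes could not change a ratio, as no tested probe was dim and each dod gene has 1 probe. All 26 values of dod-20 and dod-23 moved by less than 1 SD. Omitting 1 array cannot move a mean that far, and keeping marked spots gives the same mean, so those settings could not show a shift. Under array weights dod-19 passed, with 0.72 (limma adjusted p = 0.00342), so that 1 dod gene was higher. Weights estimated by REML, added after seeing the data, whose iteration stopped before convergence, put 29.3 on LDM in Cy5 replicate 1; under them dod-19 had 0.71, dod-6 0.24 and dod-18 -0.31, all past the threshold, 2 higher and 1 lower. With 1 array left out, the ratio ran from -0.53 to 0.0044 for dod-3 and from -0.70 to 0.050 for dod-18, and 0 dod genes passed. The ratio of dod-6 was 0.31 with median centring and 0.05 with scaled ratios, and that of dod-17 was 0.25 with scaled ratios. That of dod-23 was -0.05 with median centring. The ratio of dod-3 was -0.02 with a term for the image analysis date. Only LDM in Cy3 replicate 1 had another date, so this term gave each tested dod gene the same ratio as leaving that array out.

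Over all genes, 629 were higher and 921 lower under array weights, 1560 and 2070 under REML weights, 111 and 38 by rank product, and 6 and 1 with a term for the image analysis date. That term largely repeats the omission of LDM in Cy3 replicate 1, which also gave 6 and 1. Leaving out 1 array gave 4 to 47 higher and 0 to 16 lower genes. Lower genes numbered 3 with print-tip loess, 10 with scaled ratios, 3 with marked spots kept and 3 with the replicate block. The authors' ratios over every spot, added after seeing the data, gave 3 higher and 0 lower in limma (1224 lower at an unadjusted p under 0.05). Without LDM in Cy5 replicate 1, which gave the 0 lower genes, 289 were lower at an unadjusted p under 0.05. The cause of these shifts was not tested. The filter on dim probes removed 0 tested probes.

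Deviations of same-numbered arrays correlated at -0.0266, 0.409 and 0.231, and the highest r of each LDM in Cy5 array with an LDM in Cy3 array of another number was 0.0346, 0.00133 and 0.0104. Arrays 2 and 3 with LDM in Cy5 thus correlated best with their own number and array 1 did not, and a pairing was not established. With the replicate block dod-19 had 0.66 (limma adjusted p = 0.272). Signal near background limits dod-23, and marked spots and an uneven background limit dod-20.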
